A study of Mus musculus with 14 samples.

Results

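Solute carriers are membrane proteins that move nutrients, ions, metals, nucleotides and metabolites across the plasma membrane and the membranes of organelles. Their genes carry symbols that start with Slc and a family number. The members described here are all autosomal protein-coding genes that RefSeq annotates on GRCm38.p6 (mm10) and whose symbol is Slc followed by a digit, with Slc37a3, Slc4a1 and Slc7a11 left out. This gave 359 Slc genes among 20661 autosomal protein-coding genes. Of the 359, 232 (64.6%) had at least 1 peak of open chromatin within 1 kb of an annotated gene end, against 12858 (62.2%) of all autosomal genes. The other 127 had no such peak. Slc4a1ap, Slc7a6os, Slc9a3r1 and Slc9a3r2 fit the naming rule but encode no transporter, and all of the 4 had an end peak.

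The data are bulk ATAC-seq, in which the transposase Tn5 cuts accessible DNA, of long-term haematopoietic stem cells (LT-HSCs) of C57BL/6 mice, sorted from bone marrow as Lin- Sca1+ cKit+ CD34- Flt3-. Young cells came from mice of 10 to 16 weeks (n = 4) and aged cells from mice over 80 weeks (n = 5). A further group of aged cells (aged Ri, n = 5) received 100 µM Rhosin, a small molecule that blocks activation of the GTPase RhoA. All 3 groups, young cells included, spent 16 h at 37 °C and 3% oxygen in HBSS containing 10% FBS before tagmentation, so none is freshly isolated. The labels give 3 sequencing batches that each hold all groups. The design text calls the replicates biological, without saying how many animals each one holds.

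Stem cells in the marrow are known to rely largely on glycolysis, and to keep mitochondrial activity low. Transporters of glucose, lactate, amino acids, iron and zinc set what such a cell can take up, and the carriers of the mitochondrial inner membrane (the Slc25 family) link the cytosol with the matrix. Open chromatin at a gene end shows where regulatory DNA is accessible and is not a measure of transcript or transport activity.

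Each gene was measured at 1 of its ends, the start or the 3′ end, namely the one whose peaks within 1 kb were the better covered. For the Slc genes it was the start in 147, the 3′ end in 26 and an end of unknown direction in 59, for which no strand was known. Most ends (208) had 1 peak of 700 bp, 23 had 2 and 1 had 3. Peaks of 43 Slc ends also lay within 1 kb of an end of another gene, so their counts cannot be assigned to one gene. CPM is the count scaled to the TMM-adjusted gene-end total of its library, and levels of different genes are compared only as CPM per 700 bp peak.

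Libraries held 765533 to 3176246 counts in peaks, and the median Slc gene end held 20 to 80.5 counts per library. Gene ends took 47 to 50.7% of counts in young, 38.8 to 49.6% in aged and 35.9 to 46.8% in aged Ri libraries (the gene-end share), and Slc genes took 1.90 to 2.04% of gene-end counts in every library. End peaks were found for 11 of 13 stem cell marker genes (Slamf1 and Gata2 had none), 1 of 4 T cell, 3 of 5 myeloid, 2 of 4 erythroid, 4 of 4 megakaryocyte, 2 of 4 endothelial and stromal markers, and none of Alb, Ins2, Myh6 and Krt5. Cd3e, Cd3g, Cd8a, S100a8, Ly6g, Epor, Alas2, Cdh5 and Lepr were without one. Summed megakaryocyte marker signal was 127 to 270 CPM in young, 276 to 467 CPM in aged and 272 to 349.7 CPM in aged Ri libraries, so it did not overlap between young and the other groups. The same sum for stem cell markers was 435 to 615 CPM, 545 to 729.9 CPM and 520 to 656 CPM, and for myeloid markers 20.8 to 47.8 CPM, 35.8 to 78.3 CPM and 30.5 to 81.2 CPM. It was 30.1 to 70.5 CPM, 68 to 100 CPM and 49.8 to 112 CPM for endothelial and stromal markers, 58.2 to 79.8 CPM, 73.9 to 121 CPM and 57.8 to 103 CPM for erythroid markers. The T cell marker with a peak had 2.45 to 14.6 CPM, 6.45 to 15.4 CPM and 4.81 to 23.9 CPM. The part of cell composition in the results was not tested, and in bulk libraries more cells with an open site and a more open site in each cell cannot be told apart.

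Accessibility differed widely between transport classes. In young cells the median Slc end with a peak had 45.3 CPM per peak, against 52.8 for all autosomal genes. Mitochondrial carriers stood highest, with a median of 79.7 CPM per peak, and 38 of their 43 genes (88.4%) had an end peak. Metal transporters followed at 78.1 (25 of 33 genes with a peak), then phosphate transporters at 61.5 (4 of 5) and nucleoside and nucleotide-sugar transporters at 51.1 (27 of 35). Ion exchangers and cotransporters had a median of 47.1 CPM per peak (31 of 51), amino acid transporters 32.9 (24 of 40), organic ion, peptide, bile acid, vitamin and lipid transporters 32.3 (32 of 65, or 49.2%) and sugar transporters 31.6 (17 of 33). Monocarboxylate and dicarboxylate transporters (25.5, 14 of 18) and neurotransmitter and vesicular transporters (21.2, 17 of 33) were lowest. Classes follow the gene symbols, so Slc4a1ap, Slc9a3r1 and Slc9a3r2, which encode no transporter, count among the ion exchangers and Slc7a6os among the amino acid transporters. These medians describe the classes and were not tested against each other.

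**Figure D1:**
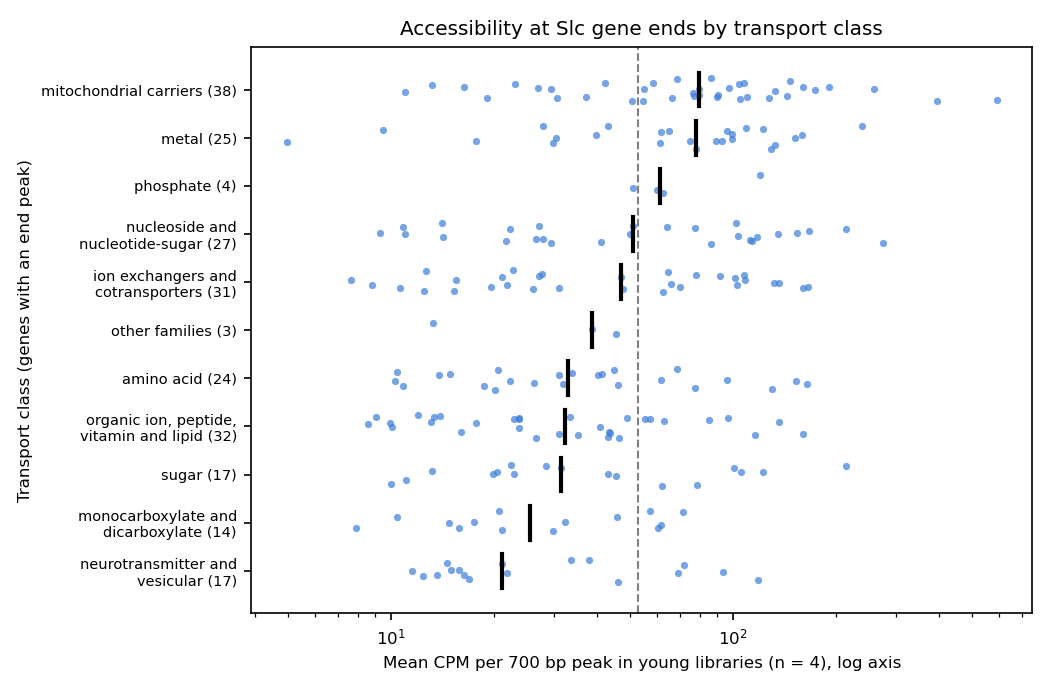
Accessibility at the 232 Slc gene ends in young libraries, as mean CPM per 700 bp peak (n = 4) on a log axis, with 1 point per gene, grouped by transport class. Black bars are class medians, from 21.2 for neurotransmitter and vesicular transporters to 79.7 for mitochondrial carriers, and the dashed line is the median of 52.8 over all autosomal genes with an end peak.

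Genes without an end peak included the liver bile acid transporter Slc10a1, the liver and pancreas glucose transporter Slc2a2, the kidney glucose transporters Slc5a1 and Slc5a2, the kidney organic anion transporters Slc22a6 and Slc22a12, the glutamate transporter Slc1a2 of astrocytes, the vesicular glutamate transporters Slc17a6, Slc17a7 and Slc17a8, the iodide transporter Slc5a5 and the pancreatic zinc transporter Slc30a8. Other carriers best known from brain or kidney had one, among them Slc32a1, Slc6a3, Slc6a4, Slc18a2, Slc22a8 and Slc34a1. The lysosomal arginine sensor Slc38a9, a gene of general cell function, had none, so a missing peak within 1 kb of an annotated end does not show that a gene is off.

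The most open Slc end was that of Slc25a41, a mitochondrial ATP-Mg/phosphate carrier, at 591 ± 169 CPM (SD, n = 4) in young cells, but its single peak is shared with an end of Khsrp. Slc25a42, which carries coenzyme A into mitochondria, came next with a peak of its own at 397 ± 62.3 CPM (SD, n = 4). Slc35g3 (276 ± 11.9 CPM (SD, n = 4)) shared its peak with Polr2a, the gene of the largest RNA polymerase II subunit. Slc39a13, a zinc transporter of the secretory pathway, had 238 ± 41.9 CPM (SD, n = 4), and Slc35f5 had 215 ± 50.3 CPM (SD, n = 4). Neither age nor Rhosin gave a call at Slc25a42 or Slc39a13. For Slc25a42 the log2 difference was 0.04 in aged against young and 0.06 in aged Ri against aged (edgeR adjusted p = 0.906 and 0.989), and for Slc39a13 -0.02 and -0.02 (edgeR adjusted p = 0.949 and 0.998).

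Among carriers of stem cell nutrients, the glucose transporter Slc2a1 had 106 ± 19.6 CPM (SD, n = 4) in young cells, and Slc2a3, another glucose transporter, 19.9 ± 9.80 CPM (SD, n = 4). The amino acid transporters Slc1a4 (164 ± 10.2 CPM (SD, n = 4)) and Slc3a2 (153 ± 23.9 CPM (SD, n = 4)), the shared heavy chain of several amino acid exchangers, were the most open of their class. Slc7a5, the large neutral amino acid transporter LAT1 that pairs with Slc3a2, had 2 peaks with 137 ± 18.2 CPM (SD, n = 4) in sum, and the glutamine transporters Slc1a5 and Slc38a1 had 77.8 ± 15.2 CPM (SD, n = 4) and 26.3 ± 8.40 CPM (SD, n = 4). The lactate transporter Slc16a1 had 57.2 ± 7.69 CPM (SD, n = 4) and Slc16a3, which exports lactate from glycolytic cells, 17.5 ± 8.14 CPM (SD, n = 4). Of the iron genes, Slc25a37 (mitoferrin-1, the mitochondrial iron importer of erythroid cells) had 147 ± 18.4 CPM (SD, n = 4), the endosomal iron transporter Slc11a2 99.5 ± 2.22 CPM (SD, n = 4) and the iron exporter Slc40a1 (ferroportin) 27.9 ± 12.9 CPM (SD, n = 4).

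Promoters with a peak differed from those without in base composition, at Slc genes and over all genes, a description that was not tested. RefSeq promoter windows on GRCm38.p6 were matched by gene ID for 238 of the 359 Slc genes, and the 250 bases upstream of the start were searched. An end peak overlapped these bases in 121 genes and not in 117. The GC box GGGCGG, read on both strands, was found in 73.6% of the 121 and 32.5% of the 117, against 43% of all 15751 promoters of protein-coding genes. The median GC content was 62.8% with a peak and 53.2% without, and the median number of CpG dinucleotides 16 and 6. The GATA motif AGATAA went the other way, in 2.48% of Slc promoters with a peak and 14.5% of those without, against 9.12% of all promoters. The same split over all promoters, 8551 with a peak and 7200 without, gave a GC box in 63.5% and 18.7%, a median GC content of 60.8% and 47.6%, 17 and 3 CpG dinucleotides and the GATA motif in 5.19% and 13.8%. A motif match is a description of the letters and not a bound site.

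**Figure D2:**
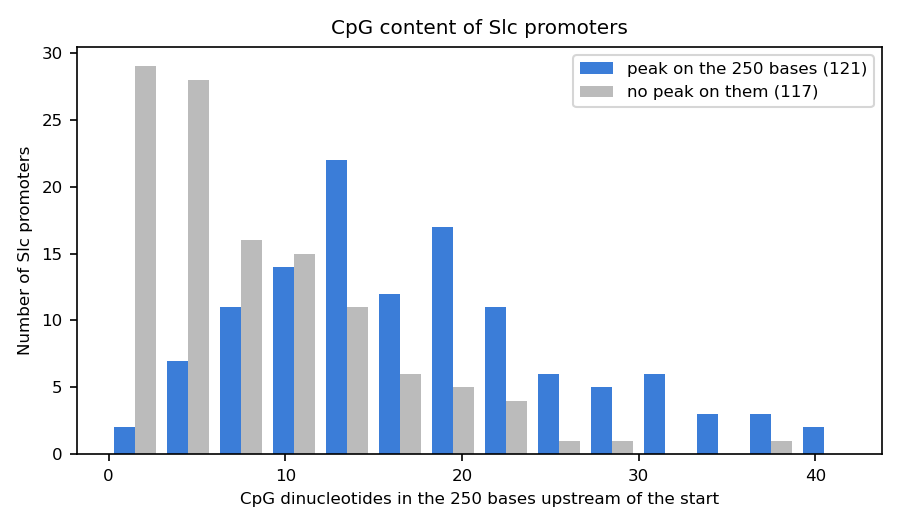
Number of CpG dinucleotides in the 250 bases upstream of the start of 238 Slc genes, as counts of promoters, split by whether an end peak overlaps these bases (121) or not (117). Promoters with a peak are spread to high CpG counts (median 16), and those without lie mostly at low counts (median 6).

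The first comparison asked what age changes in LT-HSC chromatin. At Slc genes 2 of 232 gene ends were called at an edgeR adjusted p under 0.05, both more accessible in aged cells, Slc25a45 and Slc24a5. Over all 13235 gene ends tested, 2.1% were called (1.87% higher and 0.234% lower), so the Slc share of 0.862% lay below the background. At an unadjusted p under 0.05 there were 29 higher and 10 lower Slc ends, 39 of 232. Over all gene ends 17.6% passed at that level, 1370 higher and 963 lower. The median log2 difference was 0.01 for Slc ends and -0.01 for all gene ends, and the quartiles of the Slc ends were -0.18 and 0.24. When scaled over all peaks in place of gene ends, the medians were -0.23 for Slc and -0.25 for all gene ends, no Slc end was called, and the calls over all gene ends were 73 higher and 81 lower in place of 247 and 31. Leaving out 1 library gave no Slc call without young 1, 2 or 3 or aged 3, 1 without aged 1, 2 or 4, 9 without aged 5 and 11 without young 4. Calls over all gene ends moved too, to 30 of 13190 without young 1, 665 of 13101 without aged 5 and 658 of 13202 without young 4, from 278 of 13235.

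Slc25a45 encodes a carrier of the mitochondrial inner membrane. Its peak (chromosome 19, 5877683 to 5878382) covers the start and gave 47.1, 51.5, 32.4 and 38.3 CPM in young 1 to 4, 93.6, 92.3, 106, 77.4 and 42.4 CPM in aged 1 to 5 and 129, 93.1, 136, 87.2 and 66.4 CPM in aged Ri 1 to 5. All aged libraries but aged 5 were above the young ones, and aged 5 lay within them. The mean was 42.3 ± 8.61 CPM (SD, n = 4) in young and 82.3 ± 24.4 CPM (SD, n = 5) in aged cells, a 1.77-fold difference in the model (log2 0.82 ± 0.19 SE; edgeR adjusted p = 0.0146). Within batches the log2 difference was 0.95, 1.11 and 0.14 in batches 1, 2 and 3. The call was lost without any 1 of young 1, young 2, young 3 or aged 3 (edgeR adjusted p = 0.0518 to 0.146). It was also lost under 3 of 10 other settings: scaled over all peaks, without the batch term and with the gene-end share as covariate (edgeR adjusted p = 0.109, 0.0866 and 0.741).

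Slc24a5 encodes a potassium-dependent sodium-calcium exchanger best known for its role in pigment cells. Its start peak (chromosome 2, 125067999 to 125068698) gave 14.4, 24.5, 9.24 and 13.8 CPM in young 1 to 4, 53.2, 23.8, 37.9, 36 and 21.9 CPM in aged 1 to 5 and 53.6, 30.5, 55.3, 36 and 29.8 CPM in aged Ri 1 to 5. Aged 2 and aged 5 lay just below the highest young library, young 2, and the other aged libraries above it. The mean rose from 15.5 ± 6.45 CPM (SD, n = 4) to 34.6 ± 12.6 CPM (SD, n = 5), a 2.04-fold difference (log2 1.03 ± 0.29 SE; edgeR adjusted p = 0.0459), with log2 differences of 1.21, 1.17 and 0.60 in batches 1, 2 and 3. This call was lost without any 1 of young 1, young 2, young 3 or aged 1 to aged 4 (edgeR adjusted p = 0.0525 to 0.247). It was also lost under 8 of 10 other settings, DESeq2 and the fit without the batch term among them (adjusted p over the 10 settings 0.0250 to 0.741). The summed megakaryocyte marker signal was higher in every aged than in every young library. The young and aged ranges of the summed endothelial and stromal markers overlapped only at 68 to 70.5 CPM. The gene-end share was lower in most aged libraries. Aged 5, the lowest aged library at both genes, had the highest gene-end share of its group (49.6%). In a fit with that share as covariate, neither gene was called (edgeR adjusted p = 0.741 for both). Calls over all gene ends went from 278 to 12 of 13235 in that fit. Because the share differs between young and most aged libraries, age and share cannot be told apart there.

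The 250 bases upstream of the start of 3 genes that were higher with age or with age and Rhosin (Slc25a45, Slc24a5, Slc38a7) are shown because a peak overlaps each of them. They are printed 5′ to 3′ in the direction of the gene, with capitals for any match, on either strand, to the GC box GGGCGG, the E-box CACGTG, the AP-1 motif TGANTCA, the GATA motif AGATAA, the RUNX motif TGTGGT, the antioxidant response element TGACNNNGC, the ETS motif CCGGAAG, the cAMP response element TGACGTCA or the C/EBP-ATF element TGATGNAA.
Slc25a45 (chr19:5877572-5877821, plus strand): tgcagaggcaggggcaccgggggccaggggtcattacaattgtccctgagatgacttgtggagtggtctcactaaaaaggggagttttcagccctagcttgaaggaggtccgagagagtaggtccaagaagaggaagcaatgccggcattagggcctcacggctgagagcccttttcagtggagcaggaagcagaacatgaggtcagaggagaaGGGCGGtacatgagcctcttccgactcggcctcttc
Slc24a5 (chr2:125067877-125068126, plus strand): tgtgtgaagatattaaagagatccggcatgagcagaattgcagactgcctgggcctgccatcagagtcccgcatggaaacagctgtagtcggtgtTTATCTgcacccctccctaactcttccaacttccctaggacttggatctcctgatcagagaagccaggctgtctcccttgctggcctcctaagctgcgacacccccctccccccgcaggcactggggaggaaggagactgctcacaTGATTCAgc
Slc38a7 (chr8:95853492-95853741, minus strand): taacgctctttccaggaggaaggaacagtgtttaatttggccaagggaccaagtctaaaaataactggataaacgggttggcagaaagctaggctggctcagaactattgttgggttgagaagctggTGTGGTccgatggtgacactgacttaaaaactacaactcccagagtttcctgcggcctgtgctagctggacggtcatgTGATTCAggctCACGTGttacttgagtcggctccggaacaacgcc
Slc25a45 has 1 GC box (43% of all promoters hold one). Slc24a5 has an AP-1 and a GATA match, in 6.13% and 9.12% of all promoters, and Slc38a7 an AP-1, a RUNX and an E-box match, in 6.13%, 12.4% and 6.7% of all promoters. Their GC contents were 56.4, 56.0 and 49.6%, below the median of 62.8% of Slc promoters with a peak. The Slc38a7 end sums the peak on these bases with a neighbouring peak. Tested as single peaks in aged Ri against young, the neighbouring peak was called and the peak on the printed bases was not. That call was lost without young 1, young 3 or aged Ri 3. The printed Slc38a7 bases and their motif matches lie outside the called peak.

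Several Slc ends differed with age but missed the threshold, those on the lower side by more. Slc38a7, the lysosomal exporter of glutamine and asparagine, had 63, 82.2, 50.9 and 75.1 CPM in young 1 to 4, 103, 97.9, 114, 105 and 100.2 CPM in aged 1 to 5 and 149, 122, 182, 124 and 95.5 CPM in aged Ri 1 to 5 over 2 peaks at its start (chromosome 8, 95852236 to 95853722). Every aged library exceeded every young one (log2 0.58 ± 0.17 SE; edgeR adjusted p = 0.0531), and 4 of 5 aged Ri libraries lay above all aged libraries, with aged Ri 5 below them. Slc13a2, the sodium-coupled importer of citrate and succinate in kidney and gut, had a log2 difference of 0.89 (edgeR adjusted p = 0.0738), and Slc34a3, a kidney phosphate cotransporter, 0.65 (edgeR adjusted p = 0.0781). On the lower side stood Slc7a6 (log2 -0.67 ± 0.23 SE; edgeR adjusted p = 0.120), an arginine and glutamine exchanger, Slc48a1 (log2 -0.53 ± 0.19 SE; edgeR adjusted p = 0.130), the haem transporter of endosomes, and Slc7a1 (log2 -0.42 ± 0.18 SE; edgeR adjusted p = 0.198). None of these 6 passed the test.

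**Figure D3:**
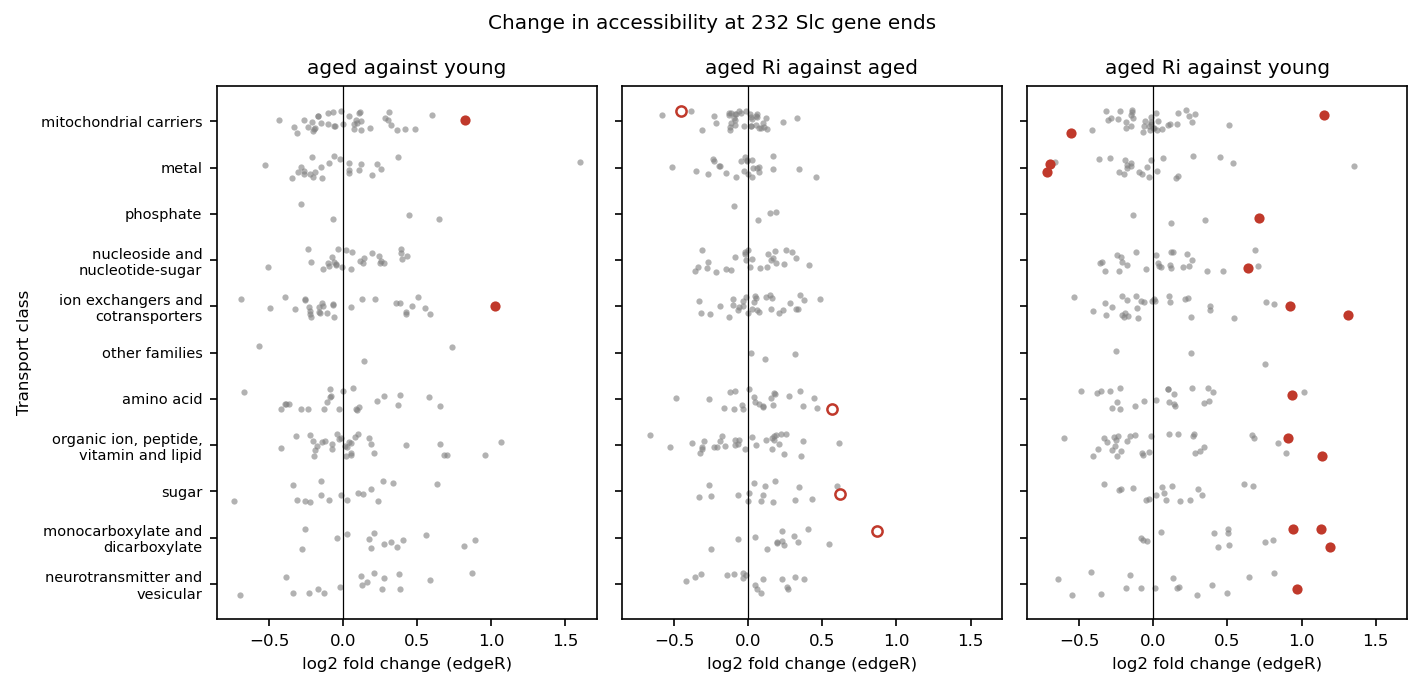
Log2 fold change of accessibility (edgeR) at the 232 Slc gene ends in each comparison, 1 point per gene, by transport class. Filled red points passed an adjusted p under 0.05 (2, 0 and 15 genes), and open red points in the middle panel passed only with the replicate number as a block (4 genes).

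The second comparison asked what Rhosin changes in aged cells. No Slc end was called (0 of 232, against 0.0756% of all gene ends by edgeR), DESeq2 called none either (0.0754% of all gene ends), and 9 Slc ends were higher and 9 lower at an unadjusted p under 0.05 (6.71% of all). Same-numbered aged and aged Ri libraries shared a sequencing batch. Over peaks, pairs 1, 3 and 5 matched each other best, and pairs 2 and 4 did not. The sources do not state that equal numbers mark a shared animal. With the replicate number as a block 4 of 227 Slc ends passed, against 1.15% of 13009 gene ends (0.807% higher and 0.346% lower). Slc13a1, Slc7a1 and Slc37a2 were higher with Rhosin in that fit and Slc25a37 was lower. The median over all Slc ends was 0.03 in log2, against 0.00 (-0.003) for all gene ends.

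Slc13a1 encodes the sodium-sulfate cotransporter known for the recovery of sulfate in the kidney. Its end peak (chromosome 6, 24166781 to 24167480) gave 22.4, 49.1, 18.5 and 39.8 CPM in young 1 to 4, 38.5, 43.4, 50.8, 45.4 and 30.7 CPM in aged 1 to 5 and 72.5, 54.6, 91.5, 71.4 and 85 CPM in aged Ri 1 to 5. Every aged Ri library was above every aged and every young library, and the 5 same-numbered pairs all moved up. The mean rose from 41.8 ± 7.58 CPM (SD, n = 5) to 75 ± 14.2 CPM (SD, n = 5) with the block (log2 0.89 ± 0.15 SE; edgeR adjusted p = 3.44e-05), while without it the call was just missed (log2 0.87 ± 0.19 SE; edgeR adjusted p = 0.0516). Within batches the log2 difference was 0.60, 0.73 and 1.41 in batches 1, 2 and 3. Aged and young libraries overlapped at this end (log2 0.32 ± 0.22 SE; edgeR adjusted p = 0.456).

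Slc7a1 encodes CAT-1, the main importer of arginine and lysine. At its start (chromosome 5, 148399510 to 148400209) the signal was 66.2, 55.2, 62.4 and 63.6 CPM in young 1 to 4, 55.1, 50.4, 37.1, 41.4 and 50.5 CPM in aged 1 to 5 and 49.3, 70.6, 76.6, 66.3 and 73.1 CPM in aged Ri 1 to 5. The aged libraries all lay below the young ones, and 4 of 5 aged Ri libraries were above all aged libraries, with aged Ri 1 the exception. With the block the end was higher with Rhosin (log2 0.58 ± 0.15 SE; edgeR adjusted p = 0.0314), in 4 of 5 pairs, and without it the adjusted p was 0.224 by edgeR. Aged Ri and young libraries overlapped (log2 0.14 ± 0.17 SE; edgeR adjusted p = 0.650).

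Slc25a37, the iron importer of mitochondria, was the 1 gene that was lower with Rhosin. Its end (chromosome 14, 69284510 to 69285209) had 120.5, 163, 153 and 152 CPM in young 1 to 4, 112, 104, 135, 174 and 144 CPM in aged 1 to 5 and 88.4, 101, 106, 96.6 and 97.7 CPM in aged Ri 1 to 5. The aged Ri values all lay below the young ones and overlapped the aged range. The aged Ri value was lower in 5 of 5 pairs, by the least in pair 2. With the block it fell by 0.46 on the log2 scale (± 0.13 SE; edgeR adjusted p = 0.0437), and without the block the difference was -0.45 (edgeR adjusted p = 0.200). Within batches the log2 difference was -0.18, -0.59 and -0.55 in batches 1, 2 and 3.

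Slc37a2, a transporter of sugar phosphates in the endoplasmic reticulum that is known from macrophages, had 68.6, 35.6, 27.7 and 40.6 CPM in young 1 to 4, 44.1, 49, 44.4, 34.7 and 21.2 CPM in aged 1 to 5 and 84, 46.5, 70.2, 48 and 41.8 CPM in aged Ri 1 to 5 at its start (chromosome 9, 37255283 to 37255982). In 4 of 5 pairs the aged Ri value was higher, and in pair 2 it was lower. The end passed with the block (log2 0.61 ± 0.17 SE; edgeR adjusted p = 0.0447) and not without it (log2 0.62 ± 0.20 SE; edgeR adjusted p = 0.363). Young 1 lay within the aged Ri range, and young and aged Ri libraries overlapped (log2 0.30 ± 0.21 SE; edgeR adjusted p = 0.405).

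**Figure D4:**
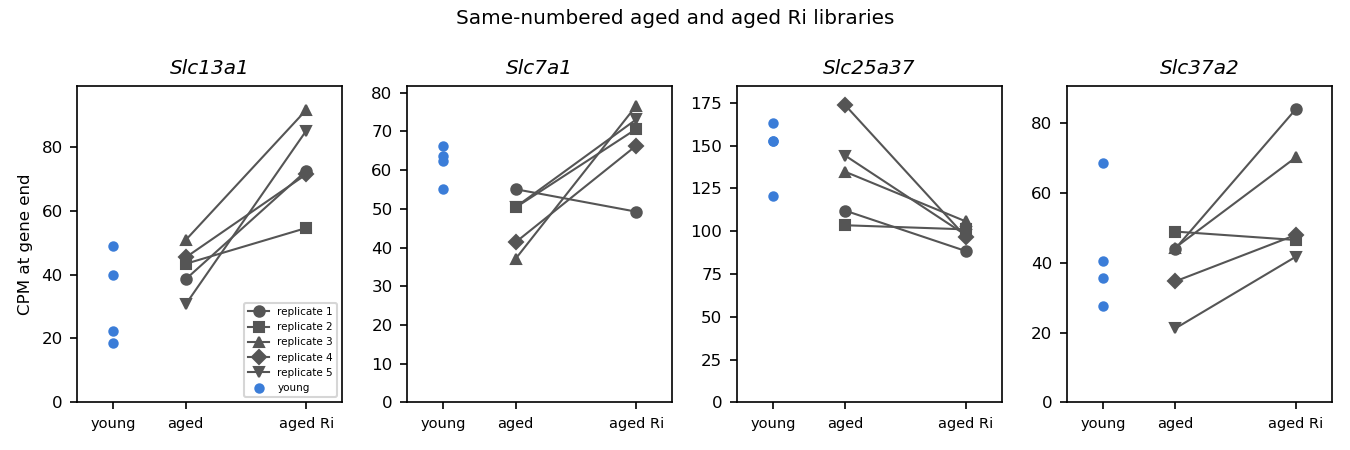
CPM at the gene ends of the 4 Slc genes that passed in aged Ri against aged with the replicate block. Lines join same-numbered aged and aged Ri libraries and blue points are the 4 young libraries; Slc13a1 rises in 5 of 5 pairs, Slc7a1 and Slc37a2 in 4 of 5, and Slc25a37 is lower in 5 of 5.

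Other low values did not pass. Slc2a1 had 109 ± 20.03 CPM (SD, n = 5) in aged and 86.3 ± 18.4 CPM (SD, n = 5) in aged Ri cells (log2 -0.33 ± 0.13 SE; edgeR adjusted p = 0.572), and Slc22a8, a kidney organic anion transporter, 46.4 ± 12.4 CPM (SD, n = 5) and 31.3 ± 4.21 CPM (SD, n = 5) (log2 -0.53 ± 0.20 SE; edgeR adjusted p = 0.499). Neither passed with the block (edgeR adjusted p = 0.302 and 0.223).

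The third comparison set Rhosin-treated aged cells against untreated young cells, which differ in both age and treatment, and it shares its libraries with the other 2. Here 15 of 232 Slc ends (6.47%) were called, 12 higher and 3 lower, against 5.23% of all gene ends (4.03% higher and 1.2% lower), so the Slc share was near the background. Every one of the 15 kept its sign in each of the 3 batches. The higher genes spanned amino acid (Slc38a7), mitochondrial (Slc25a45), carboxylate and sulfate (Slc13a1, Slc13a2, Slc13a5), calcium and anion (Slc24a5, Slc4a3), phosphate (Slc34a3), lipid and organic ion (Slc27a6, Slc22a18), sugar nucleotide (Slc35e4) and neurotransmitter-family (Slc6a15) carriers. The lower genes were Slc25a37, which imports iron into mitochondria, Slc48a1, which transports haem, and Slc30a4, which transports zinc. The median log2 difference of Slc ends was 0.01, against 0.00 (-0.004) for all gene ends, and scaled over all peaks the calls were 6 higher and 4 lower, with medians of -0.24 for both. Over all gene ends that scaling gave 258 higher and 519 lower in place of 533 and 159. The Slc count was 7 without young 1, 8 without aged Ri 3 or aged Ri 5 and 23 without aged Ri 4. Over all gene ends the calls went from 692 to 212 without young 1, 241 without aged Ri 3, 373 without aged Ri 5 and 1192 without aged Ri 4. The fit without the batch term did not call Slc13a5, Slc22a18, Slc30a4, Slc34a3, Slc48a1 and Slc4a3. Scaling over all peaks did not call Slc13a5, Slc22a18, Slc27a6, Slc34a3, Slc35e4 and Slc4a3. The replicate block did not call Slc13a2, Slc13a5, Slc27a6 and Slc4a3.

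**Figure D5:**
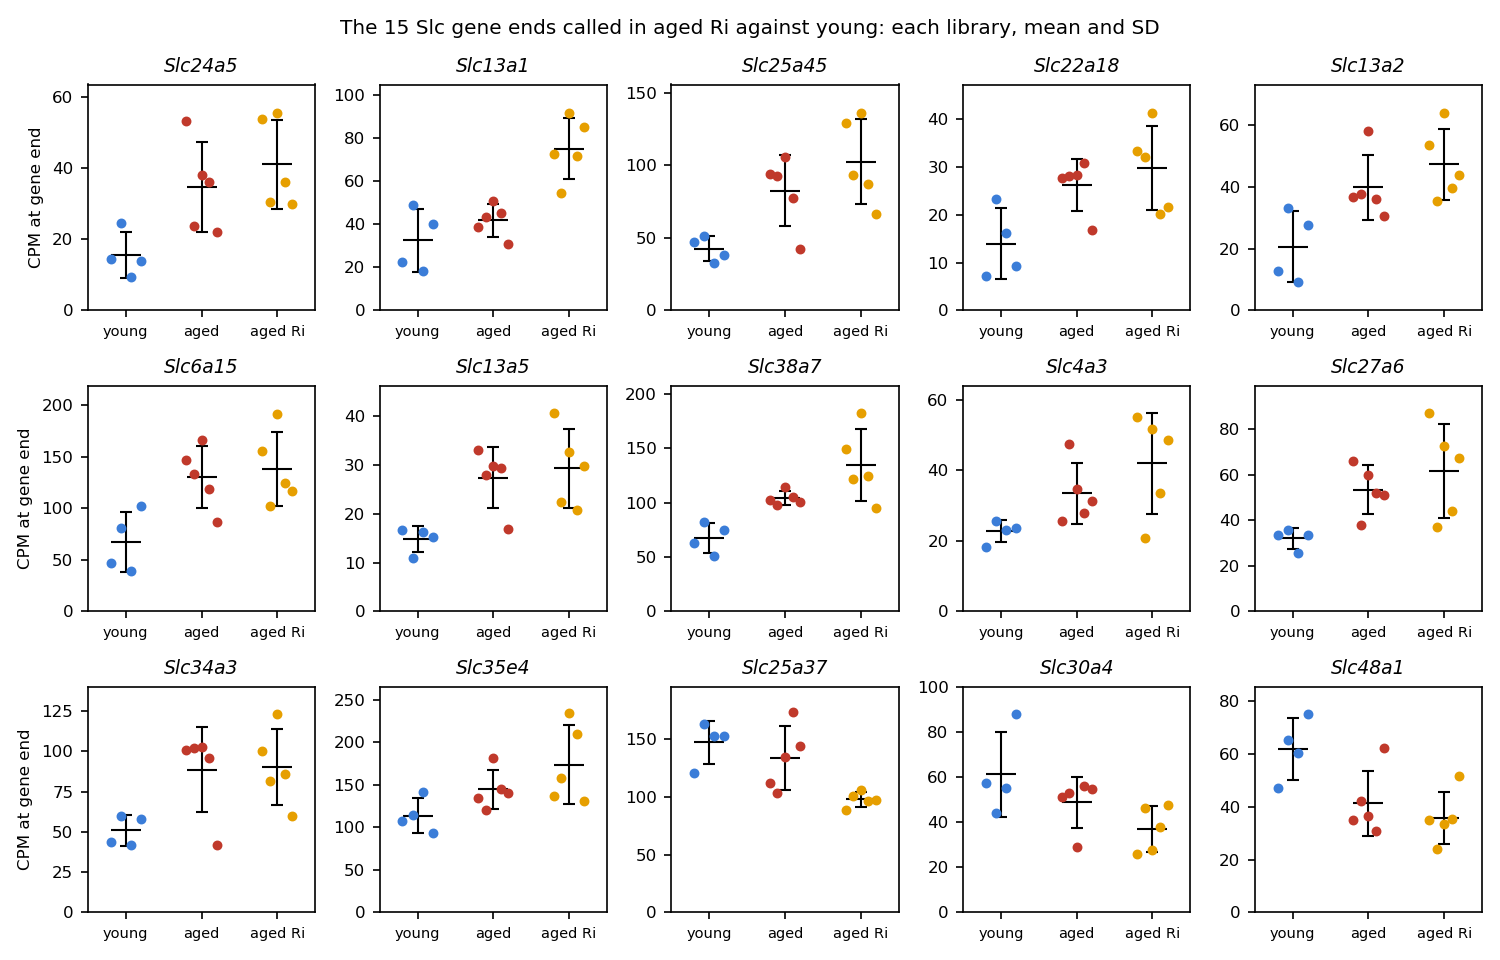
CPM at the gene end in each young (blue, n = 4), aged (red, n = 5) and aged Ri (orange, n = 5) library for the 15 Slc genes called in aged Ri against young, with the mean and SD in black and each axis from 0. The aged Ri mean is above the young mean in 12 genes and below it in 3; at Slc13a1 all aged Ri libraries lie above all aged ones.

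The 3 called members of family Slc13 are sodium-coupled anion transporters: Slc13a1 for sulfate, Slc13a2 for dicarboxylates and Slc13a5 for citrate. Slc13a1, given above, was 2.29-fold higher than in young cells (log2 1.19 ± 0.21 SE; edgeR adjusted p = 0.000405). Slc13a2 (chromosome 11, 78421541 to 78422240) had 12.8, 33.1, 9.24 and 27.6 CPM in young 1 to 4, 36.7, 37.8, 58.1, 36 and 30.7 CPM in aged 1 to 5 and 53.6, 35.3, 63.8, 39.8 and 44 CPM in aged Ri 1 to 5. All aged Ri libraries were above all young ones, and young 1 and young 3 were far below young 2 and young 4. The difference was 2.19-fold (log2 1.13 ± 0.26 SE; edgeR adjusted p = 0.00814), and without young 1 it was no longer called (edgeR adjusted p = 0.0842). Slc13a5 (chromosome 11, 72266453 to 72267152), with 11 to 16.8 CPM in young, 16.8 to 33 CPM in aged and 20.8 to 40.6 CPM in aged Ri libraries, was 1.92-fold higher (log2 0.94 ± 0.29 SE; edgeR adjusted p = 0.0441), and this call was lost without any 1 of 6 of its 9 libraries (young 1, 2 or 3 or aged Ri 1, 3 or 5; edgeR adjusted p = 0.0738 to 0.157). It was also lost under 7 of 10 other settings, DESeq2, the fit without the batch term and the replicate block among them (adjusted p over the 10 settings 0.0181 to 0.771).

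The fourth Slc13 gene with a peak, Slc13a3, had 29.8 ± 5.59 CPM (SD, n = 4) in young and 41.5 ± 15.2 CPM (SD, n = 5) in aged Ri cells (log2 0.50 ± 0.24 SE; edgeR adjusted p = 0.210), and Slc13a4 had none. The whole class of monocarboxylate and dicarboxylate transporters includes the called Slc13a1, Slc13a2 and Slc13a5, 3 of its 14 ends, against 5.23% of all gene ends. A positive log2 difference was found at 11 of 14 ends, against 6538 of 13235 over all gene ends. In this class 8 ends had an unadjusted p under 0.05 (21.8% of all gene ends), and the median was 0.50. Its summed signal was 479 to 654 CPM in young, 627 to 765.5 CPM in aged and 714 to 929 CPM in aged Ri libraries, without overlap between young and aged Ri. The other members include the lactate transporters Slc16a1 (log2 0.05, edgeR adjusted p = 0.892) and Slc16a3 (0.50, edgeR adjusted p = 0.294), which did not pass. The class holds weakly open ends, and over all gene ends the lowest of 3 equal groups by level had a median of 0.18 in this comparison. Scaled over all peaks the class median was 0.24, with 2 called, and in the fit with the gene-end share it was 0.25, with none called.

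Slc25a45, Slc38a7 and Slc24a5, given above by library, showed no overlap between aged Ri and young cells. Slc25a45 was 2.22-fold higher (log2 1.15 ± 0.18 SE; edgeR adjusted p = 0.000161), Slc38a7 1.91-fold (log2 0.93 ± 0.16 SE; edgeR adjusted p = 0.000395) and Slc24a5 2.48-fold (log2 1.31 ± 0.28 SE; edgeR adjusted p = 0.00353). These 3 calls, and those of Slc13a1, Slc35e4 and Slc25a37, were kept without any 1 library.

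Slc35e4, a little-studied member of the nucleotide-sugar transporter family, had 107, 114, 141 and 92.7 CPM in young 1 to 4, 134, 120.3, 182, 146 and 140.4 CPM in aged 1 to 5 and 136, 157, 234, 209.7 and 130.5 CPM in aged Ri 1 to 5 at its start (chromosome 11, 3913766 to 3914465). Aged Ri 3 and aged Ri 4 were highest, and aged Ri 1 and aged Ri 5 lay within the young range. The mean was 114 ± 20.3 CPM (SD, n = 4) in young, 144 ± 22.8 CPM (SD, n = 5) in aged and 174 ± 46 CPM (SD, n = 5) in aged Ri cells (log2 0.64 ± 0.14 SE; edgeR adjusted p = 0.00389). In the fit with the gene-end share as covariate it was the one Slc end still called. Calls over all gene ends went from 692 to 37 of 13235 in that fit. Slc35e4 was not called when scaled over all peaks (edgeR adjusted p = 0.203).

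Slc27a6, a fatty acid transport protein, had 25.4 to 35.6 CPM in young, 37.8 to 66.1 CPM in aged and 36.9 to 87 CPM in aged Ri libraries over 2 peaks (log2 0.91 ± 0.22 SE; edgeR adjusted p = 0.0110), with every aged Ri library above every young one. Slc6a15, a neutral amino acid transporter of neurons, had 39.3 to 102 CPM in young, 87 to 166 CPM in aged and 103 to 192 CPM in aged Ri libraries over 2 peaks (log2 0.97 ± 0.27 SE; edgeR adjusted p = 0.0469), and young 4 came within 1 CPM of aged Ri 2. Slc22a18, an imprinted member of the organic cation transporter family, had 7.18 to 23.3 CPM in young, 16.8 to 30.7 CPM in aged and 20.2 to 41.1 CPM in aged Ri libraries (log2 1.14 ± 0.31 SE; edgeR adjusted p = 0.0232), and aged Ri 4 and aged Ri 5 lay below young 2. Each of these calls was lost when 1 library was left out: Slc27a6 and Slc22a18 without young 1, aged Ri 3 or aged Ri 5 (edgeR adjusted p = 0.0506 to 0.203) and Slc6a15 without any 1 of 6 of its 9 libraries (young 1, 2 or 3 or aged Ri 1, 3 or 5; 0.0664 to 0.119).

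For Slc34a3 and Slc4a3 the end used was the 3′ end, so these values do not describe a promoter. Slc34a3 had 41.6 to 60.1 CPM in young, 41.7 to 102 CPM in aged and 59.7 to 123 CPM in aged Ri libraries (log2 0.71 ± 0.19 SE; edgeR adjusted p = 0.0265) and Slc4a3, a chloride-bicarbonate exchanger of heart and brain, 18.4 to 25.8 CPM in young, 25.7 to 47.6 CPM in aged and 20.9 to 55.1 CPM in aged Ri libraries (log2 0.92 ± 0.26 SE; edgeR adjusted p = 0.0274). Aged Ri 5 lay within the young range at Slc34a3 and aged Ri 2 at Slc4a3. Both calls were lost without any 1 of young 1, 2 or 3 or aged Ri 1, 3 or 5 (edgeR adjusted p = 0.0528 to 0.195). With both ends summed Slc34a3 was not called (edgeR adjusted p = 0.211).

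Of the 3 lower genes, Slc25a37 fell by 0.55 on the log2 scale (± 0.13 SE; edgeR adjusted p = 0.0103), and every aged Ri library lay below every young one. Slc48a1, also called HRG1, releases haem from endosomes and lysosomes into the cytosol. Its peak (chromosome 15, 97784173 to 97784872) gave 47.1, 65, 60.1 and 75.1 CPM in young 1 to 4, 34.9, 42, 36.3, 30.7 and 62.2 CPM in aged 1 to 5 and 34.8, 24.1, 33.3, 35.4 and 51.5 CPM in aged Ri 1 to 5. Aged 5 and aged Ri 5, both of batch 3, were the highest of their groups and the only libraries of aged mice within the young range. The end fell by 0.72 (± 0.19 SE; edgeR adjusted p = 0.0175), and the call was lost without young 2 (edgeR adjusted p = 0.087). With a window of 2 kb in place of 1 kb the Slc48a1 value was 0.39 (edgeR adjusted p = 0.171).

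Slc30a4 encodes a zinc transporter that loads zinc into vesicles. Its start peak (chromosome 2, 122702313 to 122703012) gave 57.5, 44.1, 55.5 and 88.1 CPM in young 1 to 4, 51.4, 53.1, 29, 56 and 54.8 CPM in aged 1 to 5 and 26.1, 46.5, 27.7, 37.9 and 47.7 CPM in aged Ri 1 to 5. Young 4 was highest, and aged Ri 2 and aged Ri 5 lay just above young 2. The end fell by 0.70 (± 0.20 SE; edgeR adjusted p = 0.0327), and the call was lost without any 1 of young 1, 3 or 4 or aged Ri 1, 3 or 5 (edgeR adjusted p = 0.0707 to 0.116). The metal class as a whole holds Slc48a1 and Slc30a4. Of its 25 ends, 2 were higher and 2 lower at an unadjusted p under 0.05, against 21.8% of all gene ends. A positive difference was found at 8 of 25, against 6538 of 13235 over all gene ends. The class median was -0.10, against -0.004. The iron exporter Slc40a1 (log2 0.54) and the iron importer Slc11a2 (-0.18) did not pass (edgeR adjusted p = 0.199 and 0.477), nor did Slc25a38, the mitochondrial glycine carrier of haem synthesis (-0.15, edgeR adjusted p = 0.618).

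The promoters of the lower gene Slc30a4, of the carboxylate transporter Slc13a2 and of Slc7a1 span a wide range of base composition and are printed as above.
Slc30a4 (chr2:122702664-122702913, minus strand): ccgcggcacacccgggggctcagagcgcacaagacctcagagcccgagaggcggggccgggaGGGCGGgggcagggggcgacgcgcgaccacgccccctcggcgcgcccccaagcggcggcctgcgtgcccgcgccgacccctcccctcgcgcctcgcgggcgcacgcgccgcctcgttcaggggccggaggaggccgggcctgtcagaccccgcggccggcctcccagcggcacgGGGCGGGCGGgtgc
Slc13a2 (chr11:78422235-78422484, minus strand): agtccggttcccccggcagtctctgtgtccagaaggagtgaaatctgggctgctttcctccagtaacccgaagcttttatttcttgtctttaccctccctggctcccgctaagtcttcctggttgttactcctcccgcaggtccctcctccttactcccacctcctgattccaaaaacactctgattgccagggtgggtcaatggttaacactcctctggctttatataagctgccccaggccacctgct
Slc7a1 (chr5:148399905-148400154, minus strand): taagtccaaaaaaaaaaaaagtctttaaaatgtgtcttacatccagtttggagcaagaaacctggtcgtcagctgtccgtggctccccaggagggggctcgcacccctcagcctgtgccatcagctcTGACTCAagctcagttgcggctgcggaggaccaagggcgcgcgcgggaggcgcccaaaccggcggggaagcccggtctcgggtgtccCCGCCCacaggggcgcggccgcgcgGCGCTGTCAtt
Slc30a4 has 82.8% GC, 40 CpG dinucleotides and 3 GC boxes, 2 of which overlap. Slc13a2 has 53.6% GC, 5 CpG and no match to the motifs searched, and Slc7a1 62.4% GC, 21 CpG, 1 GC box, 1 AP-1 match and 1 antioxidant response element (in 10.5% of all promoters). The Slc13a2 peak reaches only the bases next to the start, so nearly all of the printed Slc13a2 sequence lies outside that peak.

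Of 26 well-known carriers with an end peak, taken as a list (among them Slc2a1, Slc2a3, Slc3a2, Slc7a5, Slc1a5, Slc16a1, Slc25a3, Slc25a4, Slc11a2, Slc19a1, Slc20a1, Slc12a2 and Slc44a1), none was called in aged against young (log2 -0.38 at Slc7a5 to 0.37 at Slc40a1; smallest edgeR adjusted p = 0.132). Slc25a37 alone was called in aged Ri against young, where the others ranged up to 0.54 at Slc40a1. Over all gene ends 2.1% were called in aged against young and 5.23% in aged Ri against young. Counts of 0 and 1 among 26 are near these shares. The mitochondrial phosphate carrier Slc25a3 had 133 ± 7.39 CPM (SD, n = 4), 123 ± 14.9 CPM (SD, n = 5) and 131 ± 10.4 CPM (SD, n = 5) in young, aged and aged Ri cells, and the ADP/ATP carrier Slc25a4 66.5 ± 3.40 CPM (SD, n = 4), 72.7 ± 12.1 CPM (SD, n = 5) and 64.7 ± 3.75 CPM (SD, n = 5). The folate transporter Slc19a1 had 85.4 ± 8.20 CPM (SD, n = 4), 87.5 ± 13.4 CPM (SD, n = 5) and 83.9 ± 12.5 CPM (SD, n = 5). None of these 3 passed in any comparison. A p that misses the threshold does not show that levels are equal, and the SE of the log2 difference with age ran from 0.13 to 0.37 in this list.

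Single peaks gave a finer view, with CPM scaled over all 56235 peaks tested, so that the shift of counts away from gene ends is kept. In aged against young cells 5 of 286 Slc end peaks were called, 2 higher and 3 lower, against 5.72% of all peaks (2504 higher and 710 lower). All peaks include those away from gene ends. Gene ends, which sum peaks, gave 73 higher and 81 lower of 13235 when scaled the same way. The Slc count was 1 without young 1 or 3 or aged 1 or 3, and 3 without young 2 or aged 2. It was 10 without aged 5 and 16 without young 4. Over all peaks the calls went from 3214 to 776 without young 1, 4384 without aged 5 and 6357 without young 4. The peak of Slc7a5 at chromosome 8, 121907271 to 121907970 gave 53.3, 64.6, 76.7 and 91.4 CPM in young 1 to 4, 27.3, 31.6, 35, 23.9 and 70.4 CPM in aged 1 to 5 and 21.9, 41.7, 30.02, 55.4 and 57.4 CPM in aged Ri 1 to 5. Aged 1 to aged 4 were all below the young libraries and aged 5 within them (log2 -0.88 ± 0.23 SE; edgeR adjusted p = 0.0194), and the call was lost without any 1 of young 1 or 3 or aged 1, 3 or 4 (edgeR adjusted p = 0.0523 to 0.0796). The gene end of Slc7a5, which sums its 2 peaks and is scaled over gene ends, was not called (edgeR adjusted p = 0.156). Slc48a1 (log2 -0.77 ± 0.22 SE; edgeR adjusted p = 0.0320) and Slc7a6 (log2 -0.92 ± 0.27 SE; edgeR adjusted p = 0.0350) were the other lower peaks, and each call was lost without any 1 of 6 of 9 libraries (young 1, 2 or 3 for both, aged 1, 3 or 4 for Slc48a1 and aged 1, 2 or 3 for Slc7a6; edgeR adjusted p = 0.0538 to 0.326).

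The higher peaks were at Slc16a5, a monocarboxylate transporter, and Slc25a30, a kidney mitochondrial carrier. At Slc16a5 (chromosome 11, 115473529 to 115474228) the values were 5.68 to 15.1 CPM in young, 16.4 to 28.6 CPM in aged and 18.2 to 44.9 CPM in aged Ri libraries (log2 1.23 ± 0.28 SE; edgeR adjusted p = 0.00700), without overlap between young and aged, and the call held without any 1 library. Its neighbour at the same end, shared with Armc7, stood at 44.3 ± 6.05 CPM (SD, n = 4) in young and 34.4 ± 8.68 CPM (SD, n = 5) in aged cells (log2 -0.32 ± 0.21 SE; edgeR adjusted p = 0.389). The Slc25a30 peak, at the less open of its ends, had 2.84 to 7.74 CPM in young, 11.2 to 16 CPM in aged and 9.37 to 17 CPM in aged Ri libraries (log2 1.06 ± 0.30 SE; edgeR adjusted p = 0.0320), a call lost without any 1 of the libraries but young 4 (edgeR adjusted p = 0.0514 to 0.0888).

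In aged Ri against aged cells 1 Slc peak was called, against 0.446% of all peaks and 6 of 13235 gene ends scaled over all peaks. It lies at Slc16a13 (chromosome 11, 70223541 to 70224240), a monocarboxylate transporter of liver, and gave 19.5, 14.4, 14.2 and 17.4 CPM in young 1 to 4, 16, 10.5, 9.78, 14.4 and 8.91 CPM in aged 1 to 5 and 20.8, 18.7, 28.7, 21.6 and 28.7 CPM in aged Ri 1 to 5. Every aged Ri library was above every aged library (log2 1.05 ± 0.24 SE; edgeR adjusted p = 0.0363). The call was lost without any 1 of aged 2 to aged 5 or aged Ri 2, 3 or 5 (edgeR adjusted p = 0.0531 to 0.267). The other peak of that end held more counts and did not pass (log2 0.00 ± 0.19 SE; edgeR adjusted p = 0.999). In aged Ri against young cells 16 Slc peaks were called, 8 in each direction, against 11.5% of all peaks (4441 higher and 2002 lower). Gene ends scaled over all peaks gave 258 higher and 519 lower of 13235. The Slc count was 8 without aged Ri 3, 9 without young 1 or young 3 and 10 without aged Ri 1. It was 27 without young 4, 29 without aged Ri 4 and 31 without aged Ri 2. Over all peaks the calls went from 6443 to 2809 without aged Ri 3, 9036 without young 4, 7615 without aged Ri 4 and 6789 without aged Ri 2.

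Partners and regulators of solute carriers, a list of 36 genes, had end peaks in 34, with a median of 93.1 CPM per peak in young cells. In aged against young 1 of 34 was called, against 2.1% of all gene ends: Mfsd2b, the sphingosine-1-phosphate exporter of red cells and platelets, from 30.3 ± 6.90 CPM (SD, n = 4) to 54.6 ± 10.5 CPM (SD, n = 5) (log2 0.78 ± 0.22 SE; edgeR adjusted p = 0.0475). In aged Ri against young 3 were called, all higher, against 5.23% of all gene ends: Mfsd2b (log2 0.76 ± 0.21 SE; edgeR adjusted p = 0.0299), the haem and choline transporter gene Flvcr2 (log2 0.89 ± 0.26 SE; edgeR adjusted p = 0.0361) and Hif1a, the oxygen-regulated factor that drives glycolytic transporters (log2 1.56 ± 0.44 SE; edgeR adjusted p = 0.0280). The Hif1a end used was weakly open, with 6.60 ± 1.91 CPM (SD, n = 4) in young cells. None was called in aged Ri against aged, where 5 were lower and 0 higher at an unadjusted p under 0.05 (6.71% of all gene ends).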

How the data were processed

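Open chromatin was measured by ATAC-seq in 14 libraries of sorted mouse LT-HSCs. The authors deposited raw counts per 700 bp peak for each library, whole numbers with no normalization, on the mm10 build. The submitters' processing notes name featureCounts, SAMtools 1.14 and R 4.2.0, and the aligner and the peak caller are not given in the sources used here. The members and gene lists were chosen with earlier results of these data known.

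Peaks within 1 kb of either end of a RefSeq gene (GRCm38.p6) were summed per end, and the better covered end of each gene was kept. All 13235 gene ends that passed edgeR's low-count filter were fitted with edgeR 4.0.16 (limma 3.58.1, R 4.3.3; TMM scaling, robust quasi-likelihood test, group and sequencing batch, all 14 libraries), with Benjamini-Hochberg adjustment over all gene ends and a threshold of 0.05. CPM used the TMM-scaled gene-end totals, and log values a prior count of 2. Single peaks (56235 tested) were fitted the same way but scaled over all peaks, so their CPM are on another scale. Library totals of 765533 to 3176246 counts limit the precision at weak ends. Alternatives were DESeq2 1.42.0, no filter, a 2 kb window, both ends summed, scaling over all peaks, no batch term, the gene-end share of counts as covariate, only the groups compared, a replicate block, leaving out each library, and trended offsets, the last chosen after seeing the data.

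Genes named in the text were the called ones, those with the largest changes among well-covered ends of one sign in all batches, the most open of each class, a list of well-known carriers and called peaks. Replicate numbers were checked for pairing by deviations from the group mean. Over peaks, same-numbered aged and aged Ri libraries correlated at 0.366, 0.14, 0.645, 0.273 and 0.552, all over the limit of 0.1. These libraries share their batch, which was not removed, so batch and pairing cannot be told apart in these correlations. Pairs 2 and 4 were not each other's best match, and aged Ri 4 correlated best with aged 5. Over gene ends pair 2 was at -0.0488. The block fit treated same-numbered libraries as paired. Whether the replicates come from separate animals is not stated beyond the word biological, so p-values measure the spread between these libraries. The B cell marker list and 1 of the well-known carriers are not reported here by name.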

Additional observations from a re-analysis of the deposited data

Results flagged for a closer look

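Dixon's test was run on 51 groups of libraries at 17 Slc gene ends. These were the 15 called in aged Ri against young, which include the 2 called in aged against young, and Slc7a1 and Slc37a2, called with the replicate block in aged Ri against aged. In 4 groups there was a library set apart from the rest, which chance flags in about 1 of 20 groups. At Slc13a2 aged 3 was high at 58.07 CPM, with the next aged library at 37.77. At Slc22a18 aged 5 was low at 16.82 CPM, with the next at 27.54. At Slc30a4 aged 3 was low at 29.03 CPM, with the next at 51.4, and at Slc34a3 aged 5 was low at 41.68 CPM, with the next at 96.08. All 4 libraries are untreated aged ones. They belong to neither group of the comparison of aged Ri with young, but they enter its fit through the batch terms, the scaling and the shared estimate of spread.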

How the results depend on the processing

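Of the values for named genes, 3932 kept their direction and side of the threshold under the alternatives, 96 lost a call, 36 gained one and 1 reversed: Slc48a1 in aged Ri against young was at 0.391 with a 2 kb window. In aged against young, called Slc gene ends numbered 2, against 1 by DESeq2, 0 scaled over all peaks, without the batch term or with the covariate (the gene-end share), 4 with only those groups, and 0 to 11 leaving out 1 library. The median of 0.0137 was -0.0192 with a 2 kb window, -0.23 scaled over all peaks and -0.0271 with trended offsets. Slc peaks called were 5, against 1 without the batch term and 1 to 16 leaving out 1 library. In aged Ri against aged, 0 ends were called, against 1 without the low-count filter, with a 2 kb window, with trended offsets or with only those groups, 2 with the covariate, and 0 to 1 leaving out 1 library; peaks were 1, against 2 by DESeq2 or with only those groups, 0 without the batch term and 0 to 1 leaving out 1 library. In aged Ri against young, 15 ends were called, against 9 without the batch term, 1 with the covariate and 7 to 23 leaving out 1 library; the median of 0.00867 was -0.239 scaled over all peaks and -0.0337 with the covariate, and 16 peaks became 8 to 31 leaving out 1 library. Of all 13235 gene ends, the fit with the covariate called 12 in aged against young. It called 76 in aged Ri against aged and 37 in aged Ri against young. The cause of these shifts was not tested.

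With the replicate block, aged Ri against aged gave 4 called ends of 227 (150 of 13009 over all gene ends). It gave 3 called peaks of 276 (2292 of 51901 over all peaks). Young numbers did not pair with the others (gene-end correlations of 0.178, 0.0316, -0.16 and -0.271 with aged, and 0.206, 0.0671, -0.0896 and -0.147 with aged Ri), and the block gave 11 called ends (7 higher, 4 lower; 845 of 12612 over all gene ends), a median of 0.0533 and 26 called peaks (2 higher, 24 lower; 2117 higher and 1784 lower of 45229 over all peaks) in aged against young, and 12 called ends (572 of 13205 over all) in aged Ri against young. Depth limits the weak ends, since the median Slc end held only 20 counts in the shallowest case.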

Other observations

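ATP-binding cassette (ABC) transporters, the other large transporter superfamily, are pumps driven by ATP hydrolysis. Of 50 ABC genes 30 had an end peak, with a median of 57.3 CPM per peak in young cells, against 45.3 for Slc genes. By edgeR 0 were called in aged against young, against 2.1% of all gene ends (1 higher and 1 lower at an unadjusted p under 0.05, against 17.6% of all). The count was also 0 in aged Ri against aged, against 0.0756% (4 higher and 1 lower at an unadjusted p under 0.05, against 6.71% of all). A single ABC end, 1 of 30, was higher in aged Ri against young, against 5.23% of all gene ends. Their median log2 differences were -0.07, 0.07 and 0.06.

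Slc gene ends were spread unevenly over levels of accessibility: 95 (40.9%) lay in the lowest of 3 equal groups of all gene ends by CPM per peak, 63 in the middle group and 74 in the highest. In aged Ri against young the weakly open ends leaned upward, with a median log2 difference of 0.15 for Slc and 0.18 for all gene ends in the lowest group, and -0.05 for both in the highest.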
